A study of Mus musculus with 7 samples.

Results

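Inherited cystic kidney disease is caused by mutations in genes of the primary cilium, of membrane proteins that work there and of the regulators around them. The genes described here are 8 mouse genes of that kind: Pkd1, Pkd2, Pkhd1, Bicc1, Invs, Glis2, Glis3 and Ift88. They were chosen by name, and every probe set annotated to exactly 1 of them was taken. That gave 12 probe sets for 7 of the 8 genes, out of 45037 probe sets without controls and 18193 genes in all. No probe set was matched to Pkd2, which was not analysed here.

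The samples were 7 Affymetrix mouse arrays. A subclone of mIMCD-3, a mouse cell line of the inner medullary collecting duct, was grown to confluency and filled 1 array. Microdissected tissue of the E12.5 embryonic kidney filled the other 6, with 2 biological replicates each of ureteric bud tip, ureteric bud stalk and metanephric mesenchyme. The ureteric bud is the branching epithelial tube that becomes the collecting duct system, and the metanephric mesenchyme around it gives rise to the nephrons and the stroma. No genotype, strain or treatment is given for any group. The study set out to compare epithelial with non-epithelial cells of renal origin.

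In the tubule, most epithelial cells carry 1 primary cilium, a sensory projection built by intraflagellar transport, the movement of cargo along its microtubules. Polycystin-1 (Pkd1) and polycystin-2 (Pkd2) form a receptor and channel complex in the cilium, and fibrocystin (Pkhd1) is a large membrane protein of the cilium and apical cell pole. Inversin (Invs) marks a compartment at the base of the cilium, and Ift88 is a subunit of the intraflagellar transport complex B (IFT-B), without which cilia do not form normally. Bicc1 encodes an RNA-binding protein that in mouse controls Pkd2 messenger RNA, and Glis2 and Glis3 encode zinc finger transcription factors related to the Gli proteins. Loss of any of them gives cystic or fibrotic kidneys in mouse or human.

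All levels below are log2 intensities of a gene's brightest probe set unless another is named, and a difference is given in the same units, with its standard error (SE) from limma where tested. Genes were called where limma's p over the 6 tissue arrays, adjusted by Benjamini-Hochberg across all genes, was under 0.05. The dissections carried their own markers. The 5 epithelial markers (Cdh1, Epcam, Krt8, Krt18 and Cldn4) were all higher in bud than in mesenchyme, and the 5 nephron progenitor markers were all lower. Of the bud lineage markers Ret, Calb1, Gata3 and Wnt9b were higher in bud, while Hoxb7 lay at 3.86 to 4.24 on all 7 arrays. The stalk dissection also carried stromal transcripts: the summed linear intensity of 4 renal stroma markers was 1314 and 1027 in the tip arrays, 8947 and 8650 in the stalk arrays and 9076 and 8775 in the mesenchyme arrays. The 4 markers of ureteric mesenchyme and smooth muscle summed to 297 and 312 in tip, 2608 and 2271 in stalk, and 1392 and 1232 in mesenchyme. Of these, Tbx18 was higher in stalk than in mesenchyme by 1.41 (limma adjusted p = 0.0306). Tagln was called lower in stalk (-0.82; adjusted p = 0.0335), and Acta2 (-0.64) and Myh11 (-0.31) were not called. The higher sum in stalk thus rests on Tbx18 and does not hold for the list as a class. With tip and stalk averaged, bud had less than mesenchyme of 5 of 5 endothelial, 3 of 3 erythroid, 3 of 4 myeloid, 2 of 3 neuronal and 3 of 4 ureteric mesenchyme and smooth muscle markers, and their part in the differences below was not tested. In such bulk samples, fewer cells of a type and less RNA per cell cannot be told apart. mIMCD-3 had the epithelial markers at 9.41 to 12.31 but the 5 bud lineage markers at 3.38 to 5.22, and of the stromal markers Foxd1 was at 9.57 and the other 3 at 3.20 to 4.75. Markers of multiciliated cells (Foxj1, Ccno and Tekt1) lay between 3.92 and 5.98 on all 7 arrays.

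Promoters of 3 of the genes are shown. Pkhd1 and Glis3 differed most between bud and mesenchyme, with similar profiles (Pearson r = 0.99), and Ift88 differed least across the 6 tissue arrays. Each line is the 250 bases before a RefSeq start site, 5′ to 3′ on the strand of the gene in GRCm38.p6. Capitals mark CpG dinucleotides, in which the 3 windows differ.
Pkhd1, chr1:20618058-20618307, minus strand: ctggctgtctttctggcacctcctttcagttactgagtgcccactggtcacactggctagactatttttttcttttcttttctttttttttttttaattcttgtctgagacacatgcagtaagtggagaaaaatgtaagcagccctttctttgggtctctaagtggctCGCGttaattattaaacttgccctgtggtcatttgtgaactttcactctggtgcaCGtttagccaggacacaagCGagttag
Glis3, chr19:28680078-28680327, minus strand: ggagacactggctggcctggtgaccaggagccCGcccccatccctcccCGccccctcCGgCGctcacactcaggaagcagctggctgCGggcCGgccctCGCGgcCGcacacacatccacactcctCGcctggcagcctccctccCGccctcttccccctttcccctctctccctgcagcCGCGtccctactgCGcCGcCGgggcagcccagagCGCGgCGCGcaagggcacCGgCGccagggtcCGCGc
Ift88, chr14:57423821-57424070, plus strand: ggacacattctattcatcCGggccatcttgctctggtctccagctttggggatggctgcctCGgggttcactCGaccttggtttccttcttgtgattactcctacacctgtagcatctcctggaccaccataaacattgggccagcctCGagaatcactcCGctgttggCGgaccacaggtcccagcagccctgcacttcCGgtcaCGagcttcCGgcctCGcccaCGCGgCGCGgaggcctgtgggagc

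The Pkhd1 window had 42.0% G and C with 4 CpG dinucleotides, the Glis3 window 75.6% with 24 and the Ift88 window 60.4% with 14. The median window of the table had 52.4% and 6. AACNNGTT, the letters searched on both strands for Grainyhead factors, was present in 3.64% of the 32851 windows of the table and in none of the 6 windows of the listed genes, which are those of Pkd1, Pkd2, Pkhd1, Invs, Glis3 and Ift88. The absence of a match says only that the letters are not in this window.

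In the ureteric bud, the mean of tip and stalk, 4 of the 7 measured genes rose against mesenchyme and 0 fell. They were Pkhd1, Glis3, Bicc1 and Glis2. Pkd1, Invs and Ift88 were not called. Over all genes 6.13% were called higher in bud and 4.96% lower by the same limma test. At an unadjusted p under 0.05 the counts for the 7 genes were also 4 higher and 0 lower. The share of all genes at that unadjusted threshold was not counted. The median difference of the 7 genes was 0.84, against -0.02 over all genes tested. The 4 genes were also called in tip alone and in stalk alone against mesenchyme, and 0 were lower. In tip 7.38% of all genes were called higher and 8.37% lower (15.7% in all), and in stalk 4.3% higher and 1.24% lower (5.54% in all). These comparisons share the mesenchyme arrays. With the replicate number as a block the same 4 genes were called in all 3, where 17.6% of all genes were called for bud, 24% for tip and 9.94% for stalk.

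**Figure D1:**
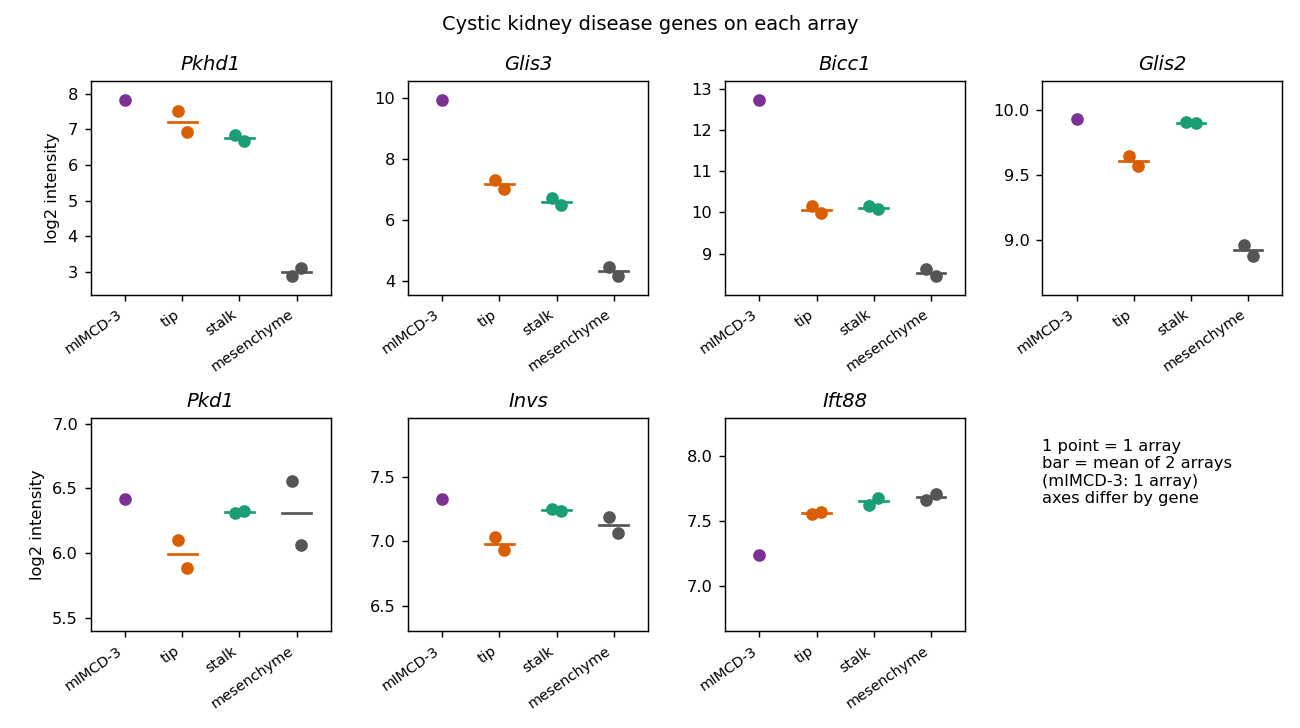
Log2 intensity of the brightest probe set of each gene on every array, with 1 point per array, a bar at the mean of 2 arrays and a separate axis for each gene. Pkhd1, Glis3, Bicc1 and Glis2 lie lower on both mesenchyme arrays than on the 4 bud arrays, and Pkd1, Invs and Ift88 span less than 0.7 log2 units across the 6 tissue arrays.

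Among the membrane proteins of the cilium, Pkhd1 had the largest difference of the 7 genes. It lay at 7.50 and 6.92 in tip, 6.84 and 6.66 in stalk, and 2.88 and 3.11 in mesenchyme. All 4 bud arrays were far above both mesenchyme arrays. The mean was 7.21 ± 0.41 in tip, 6.75 ± 0.13 in stalk and 2.99 ± 0.16 in mesenchyme (SD, n = 2 each). Bud exceeded mesenchyme by 3.99 ± 0.18 (SE), or 15.8-fold (limma adjusted p = 9.88e-06). On the mesenchyme arrays Pkhd1 was below the lower quartiles of all probe sets (4.06 and 4.17), a range in which a fold depends on how low intensities are handled. With an intensity of 16 added before the logarithm it was 2.57, still called.

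Pkd1 was measured by 1 probe set. It lay at 6.10 and 5.89 in tip, 6.31 and 6.33 in stalk, and 6.56 and 6.07 in mesenchyme. The bud arrays overlapped with the mesenchyme arrays, which themselves differed by more than any other pair of replicates of this gene. The difference between bud and mesenchyme was -0.15 (95% interval -0.52 to 0.21; limma adjusted p = 0.763). So the polycystin-1 gene was not called in a comparison in which the fibrocystin gene differed by 3.99.

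Of the transcription factors, Glis3 differed most. It lay at 7.32 and 7.02 in tip, 6.73 and 6.47 in stalk, and 4.46 and 4.16 in mesenchyme. The mesenchyme values were close to the lower quartiles of their arrays, and no bud array came near them. The group means were 7.17 ± 0.21 in tip, 6.60 ± 0.18 in stalk and 4.31 ± 0.21 in mesenchyme (SD, n = 2 each). The difference between bud and mesenchyme was 2.57 ± 0.15 (SE), or 5.95-fold (limma adjusted p = 3.29e-05). With an intensity of 16 added it was 1.91, still called.

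Glis2, the paralogue linked to nephronophthisis, moved in the same direction by less. Its values were 9.65 and 9.57 in tip, 9.91 and 9.90 in stalk, and 8.96 and 8.87 in mesenchyme. Both bud tissues were above mesenchyme, and here the stalk arrays were above the tip arrays. Bud exceeded mesenchyme by 0.84 ± 0.11 (SE), or 1.79-fold (limma adjusted p = 0.00157). Without mesenchyme replicate 2, the difference between tip and mesenchyme was not called (0.65; adjusted p = 0.0545, against 0.000109 to 0.0545 over 13 alternatives).

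Bicc1, the RNA-binding regulator, lay at 10.15 and 9.98 in tip, 10.15 and 10.08 in stalk, and 8.63 and 8.45 in mesenchyme. The tip and stalk arrays overlapped, and all 4 were above mesenchyme. The difference between bud and mesenchyme was 1.55 ± 0.12 (SE), or 2.93-fold (limma adjusted p = 0.000111). In contrast to Pkhd1 and Glis3, Bicc1 was above the upper quartile of all probe sets on the mesenchyme arrays too (7.73 and 7.58).

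The genes of ciliary structure, Ift88 and Invs, were not called. Ift88 had values of 7.56 and 7.57 in tip, 7.63 and 7.68 in stalk, and 7.66 and 7.71 in mesenchyme, a range of 0.16 over the 6 arrays. Its difference between bud and mesenchyme was -0.08 (95% interval -0.32 to 0.16; limma adjusted p = 0.839). Invs lay at 7.04 and 6.93 in tip, 7.25 and 7.23 in stalk, and 7.19 and 7.06 in mesenchyme. Its difference was -0.01 (95% interval -0.27 to 0.24; limma adjusted p = 0.984). For both genes the interval leaves room for a change of over 0.2 log2 units, and a p that misses the threshold does not show that the levels were equal.

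**Figure D2:**
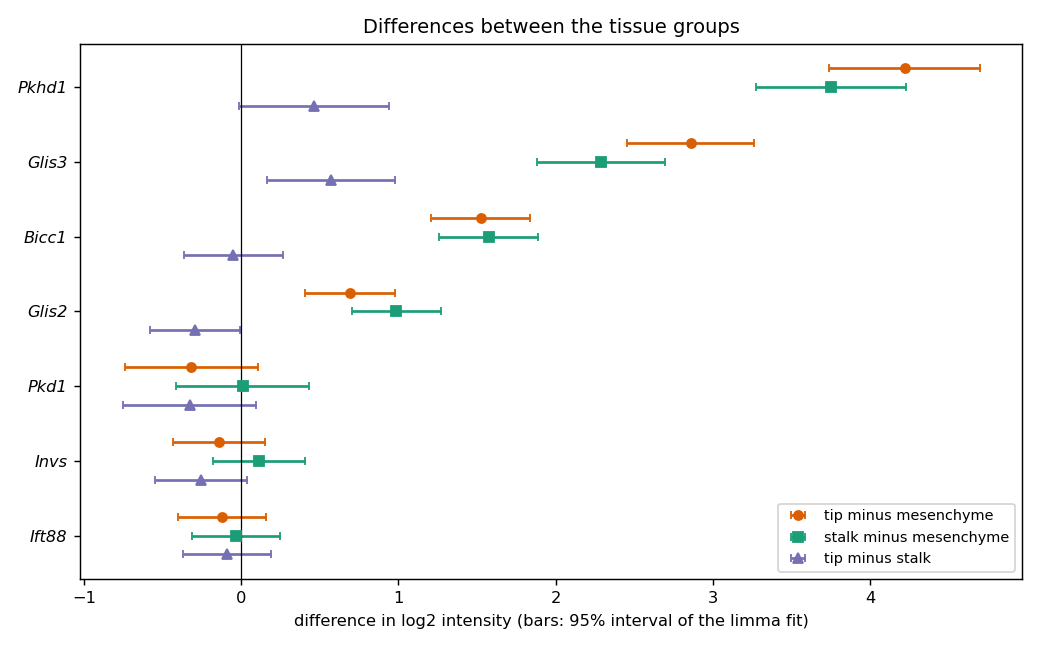
Difference in log2 intensity of the 7 genes for tip minus mesenchyme, stalk minus mesenchyme and tip minus stalk, with 95% intervals of the limma fit. The intervals of Pkhd1, Glis3, Bicc1 and Glis2 against mesenchyme lie above 0, and those of Pkd1, Invs and Ift88 include 0.

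Within the bud, the tip was compared with the stalk. By limma 0 of the 7 genes were called in either direction, where 9.83% of all genes were called, 2.86% higher and 6.97% lower in tip. At an unadjusted p under 0.05, 1 gene was higher (Glis3) and 1 lower (Glis2). The share of all genes at that threshold was not counted, so these 2 cannot be set against it. Glis3 was 0.57 ± 0.17 (SE) higher on average in tip, and both tip arrays exceeded both stalk arrays (95% interval 0.17 to 0.98; limma adjusted p = 0.0934). With the replicate number as a block Glis3 was called (adjusted p = 0.00507, range 0.00507 to 0.458 over 13 alternatives), in a fit that called 20.6% of all genes. The Pkhd1 difference was 0.47 (95% interval -0.01 to 0.94; limma adjusted p = 0.24). Without tip replicate 2, in a fit that leaves 1 tip array, it was 0.75.

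The other differences between tip and stalk ran downward. Glis2 had -0.29 (95% interval -0.58 to -0.01; limma adjusted p = 0.212), Pkd1 had -0.33 (95% interval -0.75 to 0.10; adjusted p = 0.355) and Invs had -0.26 (95% interval -0.55 to 0.04; adjusted p = 0.292). Ift88 and Bicc1 differed by -0.09 and -0.05, with intervals from -0.37 to 0.19 and from -0.36 to 0.27. The tip and stalk arrays did not overlap for 6 of the 7 genes, and 50.8% of all genes show such a separation. In group means of the brightest probe sets, the order was tip, stalk, mesenchyme for Pkhd1 and Glis3, and stalk, tip, mesenchyme for Glis2. The step between tip and stalk was not called for these genes with all 6 tissue arrays and no replicate block. The other Glis2 probe set had tip above stalk by 0.04. For Bicc1 both bud tissues were above mesenchyme and had no order between them: 1 of its 3 probe sets had a difference of 0.07 in favour of tip, and without tip replicate 2 the brightest had 0.04. Of the alternatives, 1 of 13 called the Glis3 step, the fit with the replicate block. For Pkhd1, the difference of 0.75 without tip replicate 2 rests on 1 tip array. The stromal and ureteric mesenchyme markers of the stalk dissection, given above, lie beside these differences, and their part in them was not tested.

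Bicc1, Glis2 and Invs have several probe sets. The 3 Bicc1 probe sets were all called, with differences between bud and mesenchyme of 1.55 for the brightest and 1.29 and 1.78 for the other 2, in a limma fit of all probe sets that called 7% of them. For Glis2, the brighter probe set was called, and the dimmer one had 0.49 ± 0.12 (SE; limma adjusted p = 0.0563). With the replicate block the dimmer one was called too (adjusted p = 0.0124). Against mesenchyme, the dimmer one was not called without the block in tip alone (0.51; limma adjusted p = 0.0627) or in stalk alone (0.47; adjusted p = 0.196). With the block it was called in both (adjusted p = 0.0152 and 0.0498). It did not show the lower tip level either, with a difference between tip and stalk of 0.04 against -0.29 for the brighter one. Of the 3 Invs probe sets, the 2 dimmer ones lay at 2.88 to 3.30 on all 7 arrays, below the lower quartile of every array, and carry little information.

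**Figure D3:**
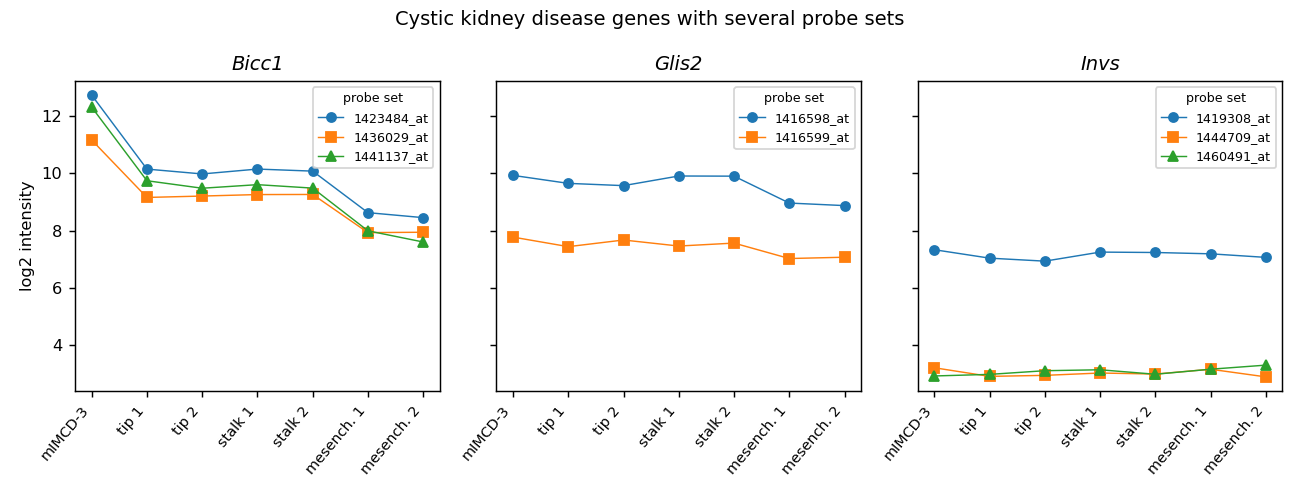
Log2 intensity of every probe set of Bicc1, Glis2 and Invs on each of the 7 arrays, where lines join the values of 1 probe set. The 3 Bicc1 probe sets are all highest in mIMCD-3 and lowest in mesenchyme, and 2 of the 3 Invs probe sets stay near 3 throughout.

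mIMCD-3 has 1 array and was added after the tissue arrays, so that the cell line and its array cannot be told apart and no test was made. Counted were differences of at least 1 log2 unit that lay outside the range of the tissue arrays. Against bud 2 of the 7 genes were higher, Glis3 and Bicc1, and 0 were lower. By this rule 9.71% of all genes were higher and 9.27% lower. Against mesenchyme Pkhd1, Glis3, Bicc1 and Glis2 were higher (4 of 7) and 0 were lower, where 11.2% of all genes were higher and 9.78% lower. Both comparisons use the same mIMCD-3 array.

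Glis3 stood at 9.94 in mIMCD-3, against a bud mean of 6.88, a difference of 3.05 or 8.30-fold. Bicc1 stood at 12.74, against a bud mean of 10.09, a difference of 2.65 or 6.26-fold. Its other 2 probe sets exceeded the bud by 1.94 and 2.74. On these arrays Bicc1 in mIMCD-3 was brighter than 99.4% of probe sets.

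Pkhd1 lay at 7.83 in mIMCD-3, 0.85 above the bud mean, while Ret, Calb1, Gata3 and Wnt9b were near the mesenchyme level or below it there. Glis2 lay at 9.93, close to the stalk arrays, and its excess over mesenchyme of 1.01 was 0.87 when its probe sets were averaged and 0.99 with an intensity of 16 added. Either way, or with at least 1.5 log2 units required, 3 of the 7 genes were higher than in mesenchyme, where 6.07% of all genes were higher by the rule of 1.5 units. Pkd1 (6.41) and Invs (7.33) were 0.26 and 0.22 above the bud mean. Ift88 (7.24) was 0.37 below it and was the only one of the 7 below its bud mean. The median of the mIMCD-3 array was lower than that of the bud arrays by 0.16, and with arrays centred on their medians the Ift88 difference was -0.21, the Bicc1 difference 2.81 and the Pkhd1 difference 1.01. Pkhd1 then passed the rule of size as well, so that 3 of the 7 genes were higher in mIMCD-3 than in bud and 0 lower, where 20.2% of all genes passed in either direction.

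Other genes of cilia and cystic disease were taken from 10 lists. Of 121 entries, 108 were measured, and none of them is among the 7 genes. Against mesenchyme, 4 were higher in bud and 2 lower, or 5.56% against 11.1% of all genes called in either direction by limma. The median difference was -0.01. With the replicate block, which called 17.6% of all genes, the counts were 8 and 7. The counts also changed when any single array was left out, in fits that leave 1 array in a group.

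**Figure D4:**
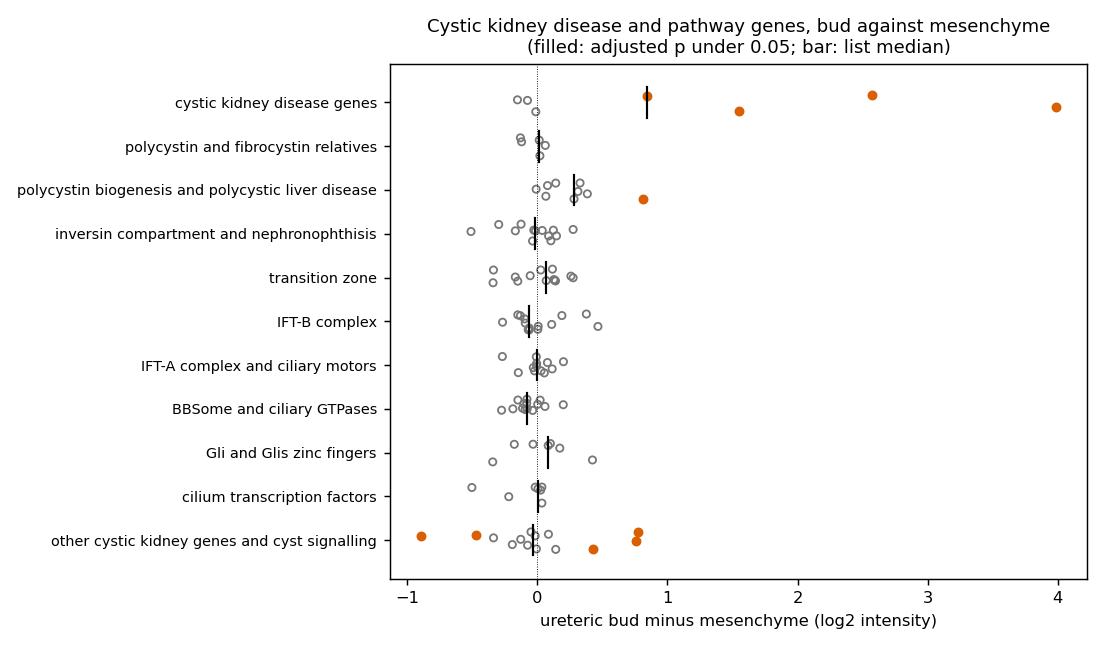
Difference in log2 intensity between bud and mesenchyme for the 7 cystic kidney disease genes and for the genes of the 10 lists, with 1 point per gene. Filled points have an adjusted p under 0.05 and the bar is the median of a list. List genes lie between about -0.9 and 0.9, while Pkhd1, Glis3 and Bicc1 lie above 1.5.

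The structural lists held few calls between bud and mesenchyme, where 11.1% of all genes were called. Of 14 IFT-B genes besides Ift88, 12 IFT-A and ciliary motor genes, 13 transition zone genes and 14 genes of the BBSome and ciliary GTPases, limma called 0 between bud and mesenchyme, and without adjustment (p below 0.05) the IFT-B list held 1 higher and 1 lower gene, the transition zone list 2 lower genes and the other 2 lists 0. In the order given, their medians were -0.06, -0.01, 0.07 and -0.08. Of 13 genes of the inversin compartment and nephronophthisis limma called 0, with 2 lower without adjustment and a median of -0.02. Of 7 cilium transcription factor genes it called 0, with 1 lower without adjustment and 1 lower with the replicate block. With the replicate block, 2 IFT-B genes were higher, and 2 transition zone genes and 1 nephronophthisis gene were lower. That blocked fit called 17.6% of all genes. In tip alone against mesenchyme, without the block, 1 IFT-B gene was called higher and 1 lower, and 1 nephronophthisis gene was called lower. There 15.7% of all genes were called. No share of all genes was counted to set beside the unadjusted counts. The 5 measured relatives of polycystins and fibrocystin had 0 calls by limma, with or without the block and at an unadjusted p under 0.05, with a median of 0.01. They lay at 3.24 to 5.55 on the tissue arrays, each value below the median of its array. At such dim values 0 calls carry little information.

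Between tip and stalk, 2 IFT-B genes were called in opposite directions. Ift172, another subunit of the same complex as Ift88, lay at 7.29 and 7.28 in tip, against 7.88 and 7.92 in stalk (-0.62 ± 0.13 SE; limma adjusted p = 0.0225). Traf3ip1, which encodes the IFT-B subunit also called IFT54, lay at 8.13 and 7.99 in tip, against 7.44 and 7.49 in stalk (0.60 ± 0.15 SE; adjusted p = 0.0473). Ift88 itself was not called there. Over all 108 list genes 1 was higher in tip and 3 were lower, or 3.7%, against 9.83% of all genes. With the replicate block 4 were higher and 10 lower, where 20.6% of all genes were called. The counts also changed when any tip or stalk array was left out, in fits that leave 1 array in a group.

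Among the genes around cyst growth, 3 of 14 were higher in bud and 2 lower, or 35.7% of the list, against 11.1% of all genes called in either direction. In tip against mesenchyme 2 were higher and 2 lower, or 28.6% of the list, against 15.7% of all genes. In stalk against mesenchyme 0 were called, where 5.54% of all genes were. Adcy6, an adenylyl cyclase that makes cyclic AMP, was 0.76 ± 0.14 higher (SE; limma adjusted p = 0.0097). Avpr2, the vasopressin receptor of the collecting duct, was 0.77 ± 0.15 higher (adjusted p = 0.0153). The growth factor receptor gene Erbb2 was 0.43 higher and Myc had a difference of -0.47, both named because they complete the count. Cftr, the chloride channel gene, had -0.89 ± 0.16 (adjusted p = 0.01), at dim values of 3.47 to 4.91 on the tissue arrays. It was also called lower in tip than in stalk (-0.80 ± 0.19 SE, limma adjusted p = 0.0359). Of 9 genes of polycystin biogenesis and polycystic liver disease 1 was called, or 11.1% of the list, the same as over all genes. With the replicate block 2 of the 9 were called, where 17.6% of all genes were, and the median of the 9 was 0.28. Dzip1l, a transition zone gene of recessive polycystic disease, was 0.81 ± 0.13 higher in bud (adjusted p = 0.00638), with 7.72 and 7.45 in tip, 7.01 and 7.02 in stalk, and 6.35 and 6.63 in mesenchyme.

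Of the relatives of Glis2 and Glis3, few were called. Of 7 measured Gli, Glis and Zic genes 0 were called between bud and mesenchyme by limma, where 11.1% of all genes were called. That comparison averages tip and stalk. In stalk alone against mesenchyme 1 was called higher, or 14.3% of the list, where 5.54% of all genes were called. In tip alone 1 was called lower, or 14.3%, where 15.7% of all genes were called. Without adjustment (p below 0.05) 1 gene was higher and 1 lower, with no share of all genes counted. With the replicate block, which called 17.6% of all genes, 1 was higher. Zic1, Zic2 and Zic4 lay at 2.80 to 4.55 on the tissue arrays, so their missing calls carry little information. Gli1, a transcription factor and target of Hedgehog signalling, lay at 5.55 and 5.89 in tip, 7.70 and 7.66 in stalk, and 6.19 and 6.37 in mesenchyme. It was lower in tip than in stalk by the test (-1.96 ± 0.15 SE, limma adjusted p = 0.000223). In that comparison Glis3 was called only with the replicate block, and Glis2 was not called with or without it. The renal stroma and ureteric mesenchyme markers were also higher in stalk than in tip in sum, and their part in the Gli1 difference was not tested. In mIMCD-3, with 1 array, 0 of these 7 list genes were higher than in bud by the rule of size and 2 were lower. By that rule 9.71% of all genes were higher and 9.27% lower. The 2 were Gli2, at 5.19 and 3.95 below its bud mean, and Gli1, 1.37 below its own. Gli3 differed by -0.71, Glis1 by 0.62 and the Zic genes by -0.32 to 0.21, while Glis3 was 3.05 above its bud mean.

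The genes whose profiles over the 6 tissue arrays came closest to each called gene were found by the root mean square distance of values centred on their mean. For Pkhd1 they were ccdc198, Plac8 and Kif12, at distances of 0.14, 0.17 and 0.17 log2 units with Pearson r of 0.999, 0.996 and 0.996. For Glis3 they were Rgl3, Cgn and Fuca2 at distances of 0.09, 0.12 and 0.13. For Bicc1 they were Col18a1, Wfs1 and Rab17 at distances of 0.07, 0.07 and 0.08, and for Glis2 Fbln2, Ypel2 and Ddit4l at 0.07 each. The 6 arrays fall into 3 groups, so such likeness rests mainly on the group means. In mIMCD-3 the likeness did not carry over for all of them. There ccdc198 lay at 4.14, Fbln2 at 5.45 and Ypel2 at 7.45, below their mesenchyme values, and Rab17 at 5.63, close to its own, whereas Pkhd1, Bicc1 and Glis2 were above their bud means.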

How the data were processed

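The authors deposited linear intensity per probe set, made with robust multichip analysis (RMA) over all 7 arrays together, per the series' design text and the submitters' processing notes. The RMA software and its version are not given in the sources used here. RMA gives no detection calls and compresses folds of dim genes. Values were converted to log2 here. Of 45101 probe sets, 64 are controls, and 34945 list exactly 1 gene. For each of 18193 genes the probe set brightest on average over the 7 arrays was used.

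One model of the 6 tissue arrays, with a mean for each tissue, was fitted in limma 3.58.1 (R 4.3.3). It left 3 residual degrees of freedom. Tests were two-sided and adjusted over all genes. A second fit held all 45037 probe sets. The labels call the replicates biological and say nothing more of their origin. The deviations of arrays with the same replicate number correlated at 0.39 to 0.57 across probe sets, over 0.1 for every pair of groups, so the numbers were taken as pairs and a blocked fit was run as an alternative. In every tissue replicate 2 also had a higher lower quartile and a lower upper quartile than replicate 1. Its part in this correlation was not tested, and the correlation does not show a shared origin. The replicates correlated least in tip (r = 0.990). Other alternatives were trend and robust variance, median centring, averaged probe sets, a filter on dim genes, the arrays of both sides only, 16 added to the intensity and leaving out each array. 1 of the 108 measured list entries was matched through a current symbol (Ttc26 for Ift56). Figures were drawn with matplotlib 3.10.9.

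The genes, the lists and the rule for named genes were chosen with earlier results of these data known. The rule named the 7 genes, up to 3 called genes per list in bud against mesenchyme and in tip against stalk, and 3 nearest profiles per called gene. Promoters are RefSeq sequences of GRCm38.p6.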

Additional observations from a re-analysis of the deposited data

How the results depend on the processing

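The 12 called differences of Pkhd1, Glis3, Bicc1 and Glis2 against mesenchyme kept their direction in all 149 values from the alternatives, and 148 of these were called. The exception is given above for Glis2. Pkhd1 fell under the filter on the dimmest 40% of genes and has no value there. Of 204 values for the 16 differences not called, 198 had the same direction and 2 were called, both between tip and stalk. There, the number of genes higher in tip was 1 with the replicate block (Glis3), and from 0 to 1 when each array was left out (Pkhd1 without tip replicate 2); the cause was not tested. The replicate block changed no other call of the 7 genes. Leaving out 1 array of a group assumes that its lone array varies like the other groups. The count of genes higher in mIMCD-3 than in bud was 3 with arrays centred on their medians. The counts for the list genes under these alternatives were added after seeing the data. The replicate block also called more of all genes: 3207 against 2018 for bud against mesenchyme, 1808 against 1007 for stalk against mesenchyme, 4368 against 2865 for tip against mesenchyme and 3754 against 1789 for tip against stalk. Of the 108 list genes it called 4 higher and 2 lower in stalk against mesenchyme, where 1 and 0 were called without it, and 10 and 13 in tip against mesenchyme, where 4 and 5 were called without it. Having 2 arrays in each tissue limits the precision, and dim genes such as Pkhd1 in mesenchyme have the least certain folds.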
